A study of Drosophila melanogaster with 2 samples.

Results

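The genes described here build and protect the Drosophila germline: regulators of oocyte polarity and mRNA localisation, components of germ plasm, switches of germ cell differentiation and sex, and the factors that make or use piRNAs. They were taken from a list of 36 gene names, of which 34 matched a protein-coding gene of the annotation by exact symbol, out of 13986 protein-coding genes in all. The names nos and Bruno1 did not match, and their annotation names are treated at the end. The genes fall into 6 roles: 6 act in oocyte mRNA localisation and polarity, 5 in germ plasm and germ cell formation, 5 in germline differentiation and sex determination, 10 as piRNA effectors or in the ping-pong cycle, 4 in piRNA biogenesis and 4 in the transcription of piRNA clusters or in silencing.

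The Drosophila oocyte is loaded by its sister nurse cells with mRNAs and proteins, some of which are anchored at the posterior pole and form the germ plasm that specifies the primordial germ cells of the next embryo. In the same lineage, PIWI proteins carry piRNAs, short RNAs that recognise transposon transcripts. In the nucleus Piwi directs chromatin silencing of transposons, and in the cytoplasm Aub and AGO3 cut transposon and precursor transcripts in turn, which amplifies the piRNAs (the ping-pong cycle). Many of these gene products reach the early embryo from the mother, so their mRNAs or proteins can be present there without transcription of the zygotic gene.

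Binding of the protein Ranshi, a zinc finger protein with a ZAD domain, was mapped by ChIP-seq in whole Drosophila melanogaster embryos collected at 0 to 24 h. The embryos carried an insertion of ranshi fused to eGFP, and chromatin was precipitated with an antibody against GFP. All samples formed 1 group of 2 biological replicates from this line, with no second condition, so no comparison between conditions was possible. Whole embryos mix all cell types, and the few germ cells among them cannot be told apart from the somatic cells in these data.

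The data were 8 peak lists on assembly dm6: 4 thresholded sets, with a global irreproducible discovery rate (IDR) of about 0.01 or better, and the ranked list of candidate peaks behind each. The IDR estimates how many of the peaks down to a given rank would fail to appear in a repeat experiment, as a share. The conservative set of the series held 2984 peaks, the larger set 5373, the set of replicate 1 3636 and the set of replicate 2 3149, while the ranked lists held 83284 to 132943 candidates. Signal, on the scale of the peak caller, is compared through its rank within a list (rank 1 is the highest). The read depth is not given in the sources used here.

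Ranshi peaks lay at the transcript starts of 10 of the 34 genes in the conservative set: stau, egl, orb, pum, bgcn, Sxl, spn-E, papi, zuc and cuff. A start peak is one whose summit lies at most 500 bp from a transcript start. That is 29.4% of the genes (exact binomial 95% interval 15.1 to 47.5, counting error only), beside 12.7% of all protein-coding genes. The interval takes the genes as independent draws, which a chosen list is not, so it does not test the difference from all genes. All 6 roles had at least 1 such gene, with 3 of 6 oocyte mRNA genes, 1 of 5 germ plasm genes, 2 of 5 differentiation genes, 2 of 10 piRNA effectors, 1 of 4 biogenesis genes and 1 of 4 cluster genes. In this set the difference from all genes lay 200 to 500 bp from the start, since with a window of 200 bp the count was 3 of 34, or 8.82%, beside 9.06% of all genes. The 200 bp window was applied to the other sets only after seeing the data. There the share was 20.6% in the larger set (beside 14.7%), 11.8% in replicate 1 (beside 9.8%) and 20.6% in replicate 2 (beside 10.5%). The genes and lists were compiled with earlier results of these data known, so the shares are descriptions and were not tested.

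The other thresholded sets gave the same order of the 34 genes and all genes. They come from the same 2 replicates, so they are not independent of the conservative set. In the larger set 14 of 34 genes had a start peak (41.2%, beside 20.5% of all genes), in the replicate 1 set 9 (26.5%, beside 14.5%) and in the replicate 2 set 11 (32.4%, beside 13.8%). The 59 other germline and piRNA genes stood nearer to the background, at 8.47% in the conservative set, 20.3% in the larger set, 15.3% in replicate 1 and 10.2% in replicate 2. Among those, tral, smg, spn-B, stwl and zpg had a conservative start peak, with signals of 228, 114, 104, 102 and 76.1. In none of the 4 sets did the share of these other genes exceed that of all genes by as much as that of the 34.

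**Figure D1:**
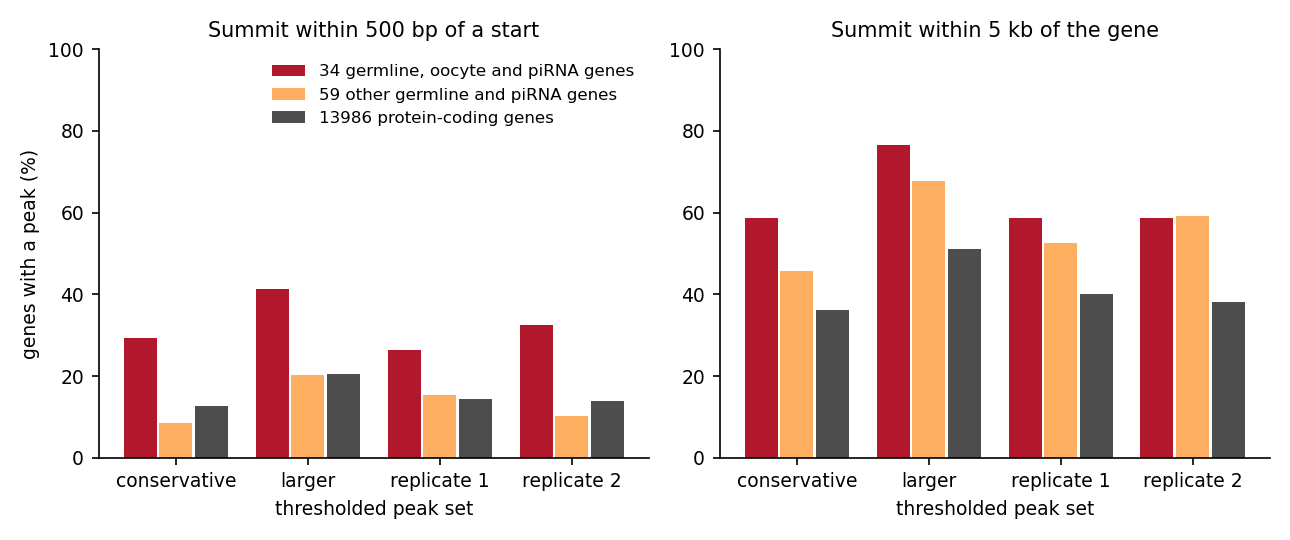
Share of genes with a peak (%, vertical axis) in the 4 thresholded peak sets (horizontal axis), for the 34 genes described here (red), 59 other germline and piRNA genes (orange) and all 13986 protein-coding genes (grey). At transcript starts (left) the 34 genes reach 29.4% in the conservative set, beside 12.7% of all genes, while the other germline genes stand at 8.47%. Within 5 kb (right) the values are 58.8%, 36.2% and 45.8%.

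Over all genes, the share with a conservative start peak rose with gene length and with the number of starts. The median length of the 34 genes was 4898 bp, beside 2162 bp for all genes, and 28 of the 34 were longer than that median. Among the longest 25% of all genes 7 of 17 of the listed genes had a conservative start peak, beside 16.6% of all genes of that length. Among the next longest 25% it was 1 of 11, beside 15.9%. In the 25% below that it was 1 of 5, beside 12.4%, and among the shortest 25% 1 of 1, beside 5.89%. Among genes with 1 transcript start the count was 4 of 19, beside 9.64%, with 2 starts 2 of 10, beside 18%, and with 3 or more 4 of 5, beside 28.5%. The part of length and start number in the shares was not tested.

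The sequences at 6 of the 10 conservative start summits are printed to show their base composition and the one short word counted in most detail. The other 4 (stau, egl, bgcn and cuff) lie on 1 chromosome arm and enter the counts of words and the base composition, but are not printed. Each runs from 50 bases before to 50 bases after the summit, in the direction of the gene, from the RefSeq sequence of the same assembly. Capitals mark CACTG on either strand, which reads CAGTG on the opposite one. Most are rich in A and T, and the sequences of pum and spn-E have the lowest G+C content of the 6, at 19.8% each.
papi, chr2L:2221731-2221831, plus strand: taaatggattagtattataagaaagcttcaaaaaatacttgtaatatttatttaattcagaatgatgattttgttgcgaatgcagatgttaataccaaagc
orb, chr3R:23281062-23281162, minus strand: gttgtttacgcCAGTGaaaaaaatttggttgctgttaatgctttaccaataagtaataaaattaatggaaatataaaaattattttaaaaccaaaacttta
zuc, chr2L:11989853-11989953, minus strand: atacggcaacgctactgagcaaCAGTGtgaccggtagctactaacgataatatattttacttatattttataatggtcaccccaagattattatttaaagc
Sxl, chrX:7096567-7096667, minus strand: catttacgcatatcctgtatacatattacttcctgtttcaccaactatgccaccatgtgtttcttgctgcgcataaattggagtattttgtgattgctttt
pum, chr3R:9237966-9238066, minus strand: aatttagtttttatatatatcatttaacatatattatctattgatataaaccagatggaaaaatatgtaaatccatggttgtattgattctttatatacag
spn-E, chr3R:15837132-15837232, plus strand: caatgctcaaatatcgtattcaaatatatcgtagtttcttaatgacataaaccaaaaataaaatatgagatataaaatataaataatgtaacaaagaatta

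CACTG, counted on both strands, lay within 50 bases of 4 of the 10 conservative start summits: orb, zuc, cuff and egl. It lay at 20.2% of all 2984 conservative peaks. The match of orb began 39 bp before the summit and that of zuc 28 bp before it. Within 25 bases of the summit the count was 1 of 10, beside 9.38% of all peaks, and within 100 bases 6 of 10, beside 54%. TATAAA lay at 4 of 10 (orb, pum, spn-E and zuc), beside 23.1% of all peaks, and GTGTGACC, the word known for the promoter factor M1BP, at zuc only, beside 0.838%, where it overlapped the CACTG match. TATCGATA, the core of the DRE promoter element, and GAGAG were in none of the 10 windows, beside 1.74% and 8.78% of all peaks. At the 1348 conservative start peaks of all protein-coding genes CACTG lay at 20% and TATAAA at 23.5%. At the same start peaks GTGTGACC lay at 1.56%, TATCGATA at 3.49% and GAGAG at 8.09%. The mean G+C content of the 10 windows was 30.6% ± 9.57 (SD over 10 peaks), beside 33.3% ± 9.73 over all peaks, so the difference was smaller than either spread.

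Among the oocyte mRNA genes, orb had the highest start peak. Its product is a cytoplasmic polyadenylation element binding protein needed for translation of localised oocyte mRNAs. The peak (chr3R:23281007-23281210) had a signal of 385 and rank 280 of 2984, with its summit 256 bp upstream of orb and 89 bp from the start of Cdc16, which lies closer. In replicate 1 the signal at this place was 234 (rank 358 of 3636) and in replicate 2 142 (rank 248 of 3149), so the site stood high in both. A second conservative peak of orb, 2347 bp beyond the gene with a signal of 270, lay 102 bp from the start of Pex11c. It had no counterpart within 5 kb of orb in the larger set. Both replicate sets held it, with signals of 181 (rank 546) and 84.4 (rank 678).

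The double-stranded RNA binding protein Staufen (stau) and the dynein adaptor Egalitarian (egl), both part of mRNA transport in the oocyte, had weaker start peaks. The stau peak (chr2R:18125736-18126051) had a signal of 118 and rank 1808, with its summit 115 bp upstream of stau and the start of Spn55B also in the window. It was in the replicate 1 set (signal 70.1, rank 2114), while in replicate 2 it was a candidate of signal 37.7 with an IDR of 0.503. The egl peak (chr2R:23745227-23745542) lay in an egl intron, about 200 bp upstream of an inner start, with a signal of 78.2 and rank 2646. In replicate 2 its signal was 36.4 (rank 2827), and in replicate 1 it was a candidate of 48.2 with an IDR of 0.846. A second conservative egl peak, of 102, lay deeper in the gene in an egl intron. Each of the 2 start peaks thus passed the threshold in 1 replicate only.

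The remaining oocyte genes had no conservative peak at a start. For BicD, the partner of Egalitarian in dynein transport, the highest peak lay in its own intron, 6728 bp into the gene, with a signal of 206. For osk, whose protein nucleates the germ plasm, both peaks (signals of 104 and 82.5) lay upstream by 4784 and 3145 bp and closer to starts of the neighbour pyd. No thresholded peak lay within 5 kb of grk, the dorsal-ventral signal of the oocyte, and its highest candidate near the gene in the conservative ranked list had a signal of 49.5 and an IDR of 0.116.

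Among the germ plasm and germ cell genes, pum held most of the peaks. It encodes Pumilio, a translational repressor that acts with Nanos, and at 171340 bp it is the longest of the 34 genes. It had 4 conservative and 10 larger-set peaks within 5 kb, the highest in a pum intron with a signal of 190. Its conservative start peak (chr3R:9237858-9238173) had a signal of 95.8 and rank 2246, with the summit 334 bp upstream of pum and no other gene's start in the window. In replicate 1 it reached 57.3 (rank 2634), and in replicate 2 it was a candidate of 38 with an IDR of 0.023. Replicate 2 instead had a start peak of 41.4 (rank 2468), 79 bp upstream of another pum start, which in the larger set had a signal of 68 and its summit 21 bp downstream of that start, in the 5' UTR. Both replicates thus had a pum start peak, at different starts of the gene.

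vas and gcl had a start peak in the larger set of the series and none in the conservative set. vas encodes the germ plasm RNA helicase Vasa, and its peak (chr2L:15061384-15061699) had a signal of 67.9 and rank 4014 of 5373, 114 bp upstream of a start it shares with solo. No replicate 1 candidate lay there, and the replicate 2 candidate of 34 did not pass the threshold. gcl, needed for the formation of pole cells, had a peak of signal 71 (rank 3808), 363 bp upstream of gcl and 56 bp from the start of CG14767. In replicate 2 the candidate at that place had a signal of 32.3, and the gcl start peak of that replicate was another one, 78 bp downstream of the start, of 26.6 (rank 3022). Within 5 kb of tud, the founding Tudor domain gene, the one conservative peak (signal of 110) lay in an intron of Pu, 210 bp from the start of CG4286. No thresholded peak lay within 5 kb of pgc, which keeps pole cells transcriptionally silent, and its best candidate in the conservative ranked list had a signal of 39.5 and an IDR of 0.751.

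All 5 genes of germline differentiation and sex determination had a conservative peak within 5 kb, beside 36.2% of all genes. At a start, bgcn and Sxl had one, beside 12.7% of all genes. bgcn encodes the partner of Bam in germline differentiation. Its start peak (chr2R:23858728-23858846) lay in the bgcn 5' UTR, 136 bp downstream of the start, with a signal of 206 and rank 842. The replicate signals were 91.2 (rank 1519) and 112 (rank 397), so it was found in both. A far higher peak, 1527 at rank 9, lay 2864 bp beyond bgcn, but 76 bp from the start of asRNA:CR45928 and with eIF6 also in its window. Sxl, the switch of female sex determination, had its start peak (chrX:7096459-7096774) in its own intron, 449 bp downstream of a start, with a signal of 116 and rank 1844. In replicate 1 it had a signal of 64.4 (rank 2318) and in replicate 2 50.5 (rank 1781). A second intronic Sxl peak of 144 lay 1334 bp downstream, and 2 more near the gene lay at CG4615.

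bam, otu and ovo had peaks near the gene but not at a start. bam, the trigger of cystoblast differentiation, was 2419 bp from a peak of signal 416 (rank 234) whose summit lay 14 bp from the start of RpS27, a ribosomal protein gene. ovo, a zinc finger regulator of female germ cells, had a peak of 206 (chrX:5046654-5046819) 1524 bp upstream, and no start of another gene was closer. The peak near otu, which acts in oogenesis, had a signal of 153 and lay in an intron of CG33181.

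Of the 10 piRNA effectors, papi had the highest peak at a start among all 34 genes. Papi is a Tudor domain protein of the mitochondrial surface that acts in the trimming of piRNAs. The peak (chr2L:2221676-2221875) had a signal of 517 and rank 152 of 2984, in a papi intron 308 bp upstream of an inner papi start, and no other gene's start lay in its window. The replicate signals were 334 (rank 176) and 178 (rank 148), so both replicates placed it near the top. A second conservative peak of 193 near papi lay 68 bp from the start of sau.

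For spn-E, a helicase of the ping-pong machinery, the start peak (chr3R:15837024-15837339) had a signal of 81.8 and rank 2544. Its summit lay 237 bp upstream of spn-E but 65 bp from the start of ND-23, a subunit gene of respiratory complex I. In replicate 2 the signal was 45.7 (rank 2126), and in replicate 1 it was a candidate of 37.7 with an IDR of 0.0311.

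The 3 PIWI family genes gave no conservative peak within 5 kb, where only 36.2% of all protein-coding genes had one. piwi had a start peak in the larger set (chr2L:10987442-10987757) with a signal of 164 and rank 1252 of 5373, 180 bp upstream of the gene and with CG12253 also in the window. In replicate 2 it had a signal of 35.5 (rank 2867), and no replicate 1 candidate overlapped it. aub, on the same arm as piwi, had a peak of 86 (rank 655) in the replicate 2 set, 2660 bp upstream and 17 bp from the start of RpL9, but none in the series sets. AGO3 had no thresholded peak at all, and neither aub nor AGO3 had a candidate within 500 bp of a start in any ranked list.

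The candidate lists covered these genes unevenly. Within 5 kb, piwi had 2 candidates in replicate 1 and 14 in replicate 2, aub 0 and 5, AGO3 91 and 0, and del 0 and 17. Over all protein-coding genes the median was 11 in replicate 1 and 13 in replicate 2, and 1034 genes had none in replicate 1 with 5 or more in replicate 2, while 949 had the reverse. Replicate 1 also listed few candidates at BicD (2, beside 15 in replicate 2), squ (2, beside 11), gcl (3, beside 21) and tud (3, beside 26). At qin replicate 1 listed more (64, beside 11). A missing call can therefore also fall at a gene where 1 replicate lists few candidates or none. The part of this in the calls was not tested.

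The other effectors had weaker or neighbouring peaks. mael, a factor of transcriptional silencing, was 3767 bp from a conservative peak of 109 in an ArfGAP3 intron. tej and squ, a Tudor domain gene and a gene of the piRNA pathway, had peaks in the larger set and none in the conservative set, of 65.7 and 55.3, at distances of 4940 bp and 2830 bp from the gene. The tej peak was also in the replicate 2 set, with a signal of 48.6 (rank 1903), while squ had none in either replicate set. krimp and qin, both Tudor domain genes of the ping-pong cycle, had no thresholded peak within 5 kb. Their highest candidates in the conservative ranked list had signals of 49.4 and 32.9, with IDRs of 0.108 and 0.436.

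Of the piRNA biogenesis genes, zuc had a strong start peak. Zucchini is the nuclease that forms the 5' ends of phased piRNAs, and zuc is the shortest of the 34 genes at 1148 bp. The peak (chr2L:11989806-11989984) had a signal of 293 and rank 470, with its summit 21 bp upstream of zuc, the closest of these genes in the conservative set, and with dgt2 starting in the same window. The replicate signals were 120 (rank 1058 of 3636) and 170 (rank 164 of 3149), so it stood higher in the order of replicate 2. armi, a helicase of precursor processing, fell just outside the window, 633 bp from a peak of 173 that lay 81 bp from the start of eIF5B, whereas Sxl at 449 bp was the farthest inside it. shu, a cochaperone that helps load PIWI proteins, was 1541 bp from a peak of 197 at Snap29. vret, a Tudor domain gene, had no thresholded peak within 5 kb, the nearest conservative summit being 5228 bp away, while vas at 4736 bp was the farthest inside that limit.

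Among the 4 genes of cluster transcription and silencing, cuff had the only conservative start peak. Cutoff protects the transcripts of piRNA clusters from termination together with Rhino (rhi) and Deadlock (del). The peak (chr2R:11885743-11885822) had a signal of 204.7 and rank 852, 298 bp upstream of cuff and 184 bp from the start of CG13185. The replicate signals were 130 (rank 934) and 79.6 (rank 768), so it passed in both. Panx, which links Piwi to chromatin silencing, had a start peak in the larger set of 70.4 (rank 3844), 10 bp upstream and with CG9485 in the window. It was in the replicate 1 set with a signal of 46.8 (rank 3175), and in replicate 2 it was a candidate of 19.5. del had larger-set peaks of 82.2 and 71.4 within 5 kb, the second 764 bp upstream with no closer start. rhi had no thresholded peak, and its highest candidate in the conservative ranked list, of 58.2 with an IDR of 0.0185, lay 1666 bp upstream.

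**Figure D2:**
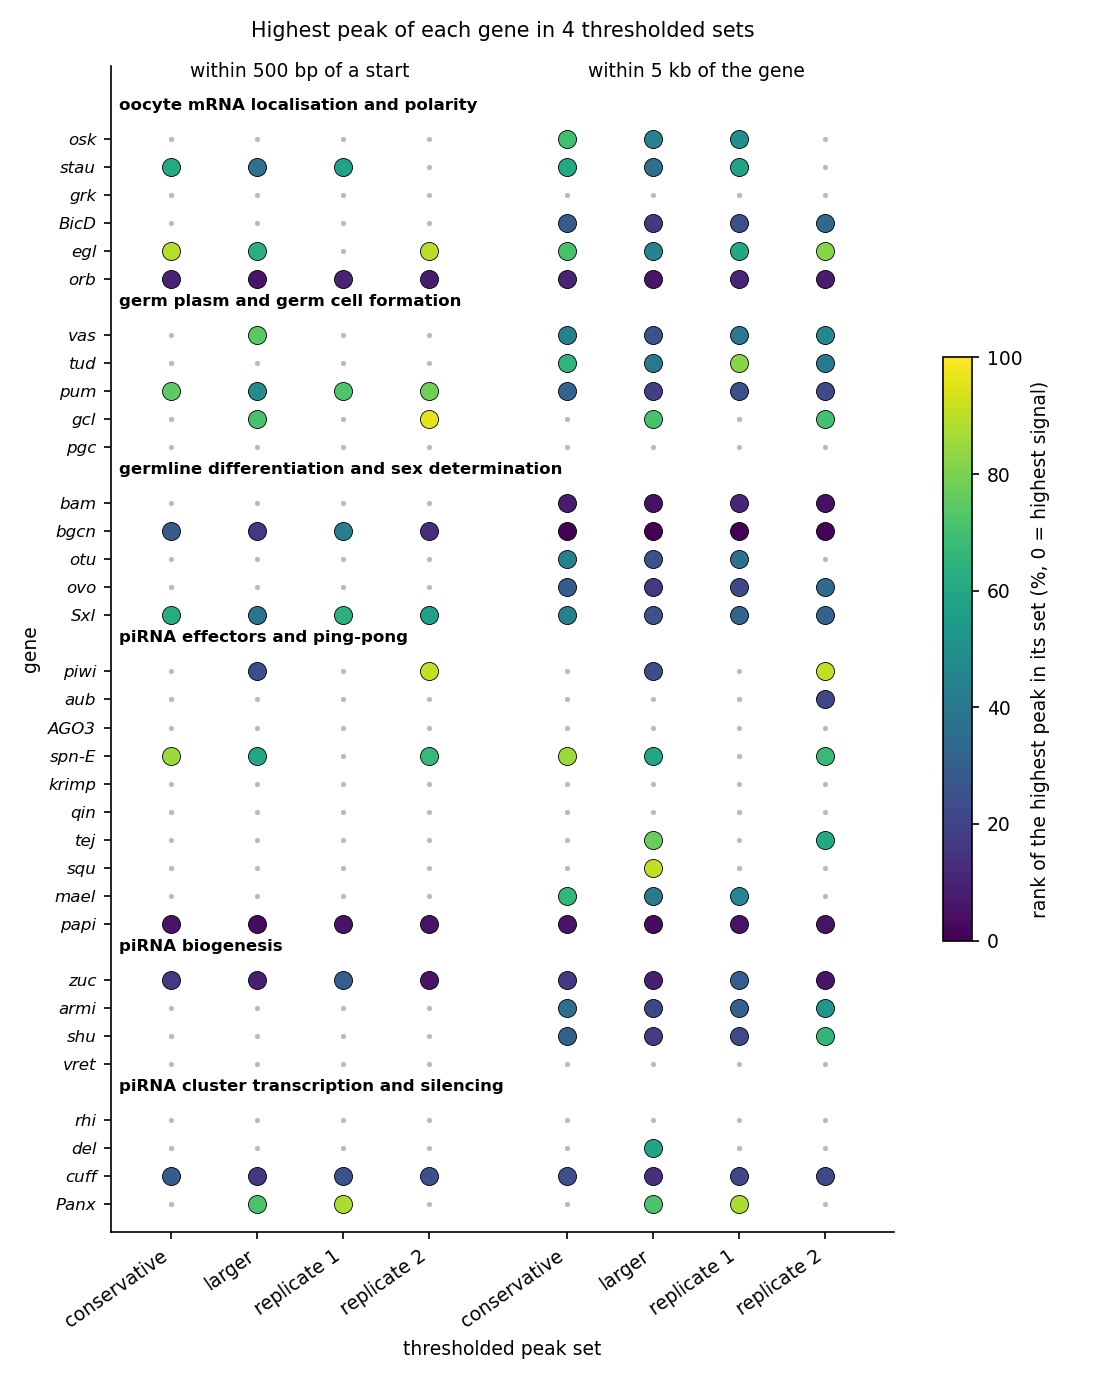
Highest peak of each of the 34 genes (rows, by role) in the 4 thresholded sets (columns), at a transcript start (left) and within 5 kb of the gene (right). Circle colour gives the rank of the peak in its set in percent (dark is high signal), and small grey dots mark no peak. papi, orb, zuc, bgcn, cuff and Sxl have start peaks in all 4 sets, and so does pum at different starts.

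The 10 start peaks were spread over the ranks of the conservative set much as start peaks in general. Their median rank percent, where 0 is the highest signal and 100 the lowest, was 44.6, beside 41.5 for the start peaks of all protein-coding genes, with SDs over peaks of 32 and 29.7. Their signals ran from 78.2 for egl to 517 for papi. The median summit lay 219 bp upstream of the listed gene's own start (SD of the position over peaks 247 bp). For all 1348 start peaks it was 108 bp upstream (SD 162 bp), a difference smaller than either spread. These positions are not measured alike, since those of all start peaks take the closest start of any protein-coding gene. At orb, spn-E and cuff another gene's start was closer, at 89, 65 and 184 bp. In the replicate 1 set the medians were 115 and 117 bp upstream, in the larger set 180 and 93 bp, and in replicate 2 136 and 70 bp. Of the 10 summits, 8 were upstream (80%, beside 84.1%). Only zuc, stau and bgcn had a summit within 200 bp of their own start.

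**Figure D3:**
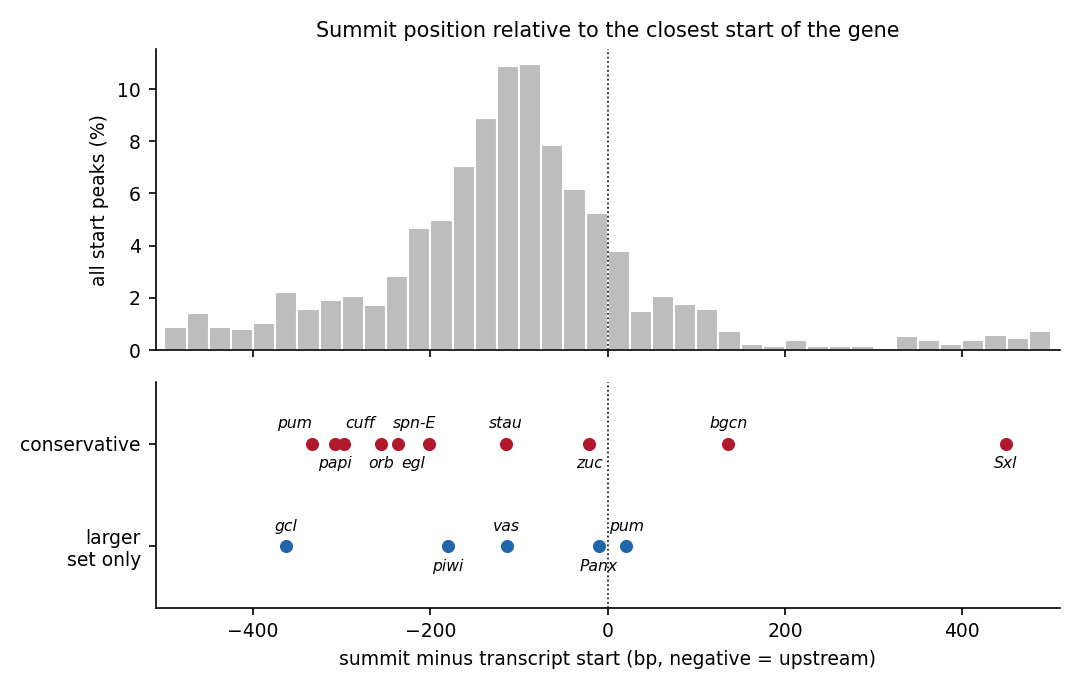
Summit position relative to the closest start of the gene (bp, horizontal axis, negative is upstream). The histogram gives all 1348 conservative start peaks (% per bin of 25 bp), each from the closest start of any protein-coding gene. Points give the listed genes' peaks, from the listed gene's own start, in the conservative set (red) and those only in the larger set (blue). Of the red points, 6 lie about 200 to 334 bp upstream, to the left of the main mode of the histogram. Among them, orb, spn-E and cuff have a closer start of another gene, which the points do not use.

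Neighbouring genes share many of these sites. In 7 of 34 genes (20.6%, beside 9.24% of all genes) the own start was the closest of any gene to a conservative start summit, while for orb, spn-E and cuff the start of Cdc16, ND-23 or CG13185 was closer. Another gene's start lay in the window at 5 of the 10 start peaks, beside 42.4% of all start peaks. Which of the genes such a peak belongs to cannot be read from a peak list.

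Within 5 kb of the gene 20 of the 34 genes had a conservative peak (58.8%, exact binomial 95% interval 40.7 to 75.4, counting error only), beside 36.2% of all genes. The genes were listed with earlier results of these data known, so this share is a description too. Its interval is no test either, and the difference was not tested. The counts were 26 of 34 in the larger set (76.5%, beside 51.1%), 20 in replicate 1 (58.8%, beside 40%) and 20 in replicate 2 (58.8%, beside 38.1%). The 59 other germline genes reached 45.8%, 67.8%, 52.5% and 59.3% in the same order. Among the longest 25% of genes it was 13 of 17 listed genes, beside 48.4% of all genes of that length, and among the next longest 25% 3 of 11, beside 38.2%. By role, 5 of 6 oocyte mRNA genes, 3 of 5 germ plasm genes, 5 of 5 differentiation genes, 3 of 10 effectors, 3 of 4 biogenesis genes and 1 of 4 cluster genes had such a peak.

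Most of these nearby peaks lay closer to the start of another gene. Of the 34 distinct conservative peaks, 11 (32.4%) had the listed gene's own start closest, beside 33% of all pairs of a peak and a protein-coding gene in reach. These 11 belonged to Sxl, bgcn, egl, ovo, papi, pum, stau and zuc. Another 15 lay within 500 bp of a closer start of another gene, such as RpS27 beside bam, Pex11c beside orb and Snap29 beside shu. The remaining 8 were closer to another gene at a greater distance. In all, 10 peaks lay inside a listed gene, 9 of them in an intron.

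**Figure D4:**
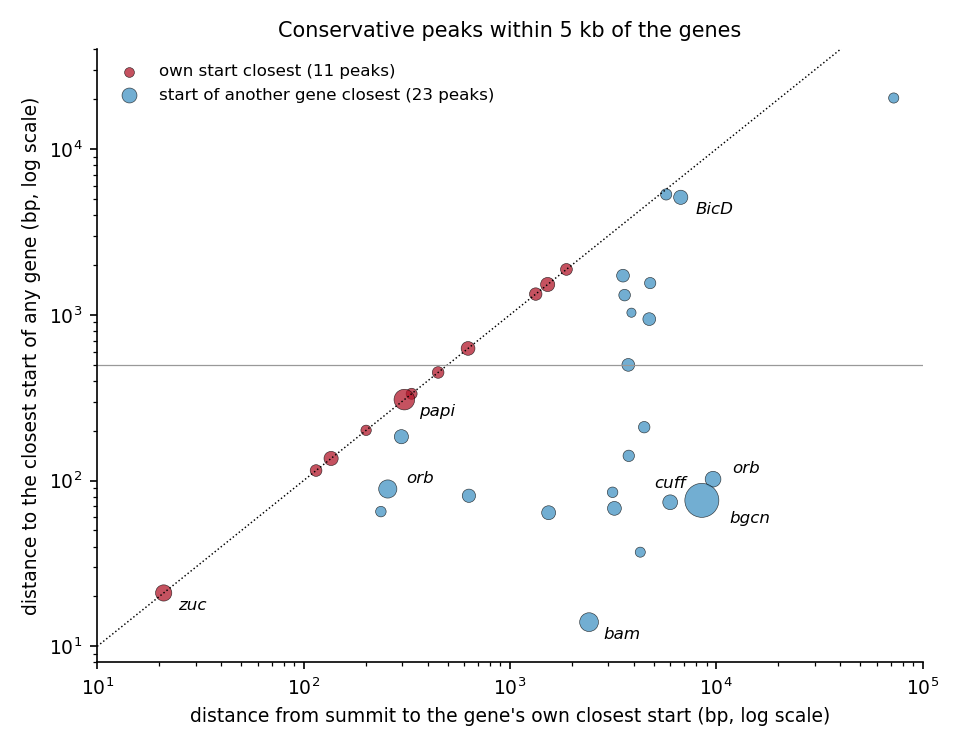
The 34 conservative peaks within 5 kb of the genes, by distance to the gene's own closest start (horizontal) and to the closest start of any gene (vertical), both in bp on log scales. Points on the dotted diagonal have the own start closest (11 peaks, red), points below it have another gene's start closest (23 peaks, blue), the grey line marks 500 bp, and point area grows with signal. The largest point, bgcn, is the peak of signal 1527 that lies 76 bp from another gene's start.

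The candidate lists, which hold far weaker peaks, barely separated these genes from the rest. A candidate lay at a start in 21 of 34 genes in the conservative ranked list (61.8%, beside 58.9%), 30 in the larger one (88.2%, beside 78.9%), 22 in replicate 1 (64.7%, beside 62%) and 28 in replicate 2 (82.4%, beside 71.5%). Within 5 kb the counts were 31 (91.2%, beside 84.6%), 34 (100%, beside 95.7%), 32 (94.1%, beside 90.5%) and 33 (97.1%, beside 90.7%). These shares lie near the background and show nothing about the genes.

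The replicates shared most of the gene calls. A start peak was present in both replicate sets for 7 genes (Sxl, bgcn, cuff, orb, papi, pum and zuc), in replicate 1 only for Panx and stau, and in replicate 2 only for egl, gcl, piwi and spn-E. The pum call was shared by gene and not by site, since the replicates' peaks lay at different pum starts. The shared genes were 77.8% of those of replicate 1 and 63.6% of those of replicate 2, beside 60.5% and 63.3% for all genes. Of the 10 conservative start peaks, 6 overlapped a peak of both replicate sets (60%, beside 65.5% of all start peaks), and all 10 overlapped a candidate in both, beside 97.6% of all start peaks. The 6 had the 5 highest series signals of the 10 and that of Sxl, which stood just below stau.

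**Figure D5:**
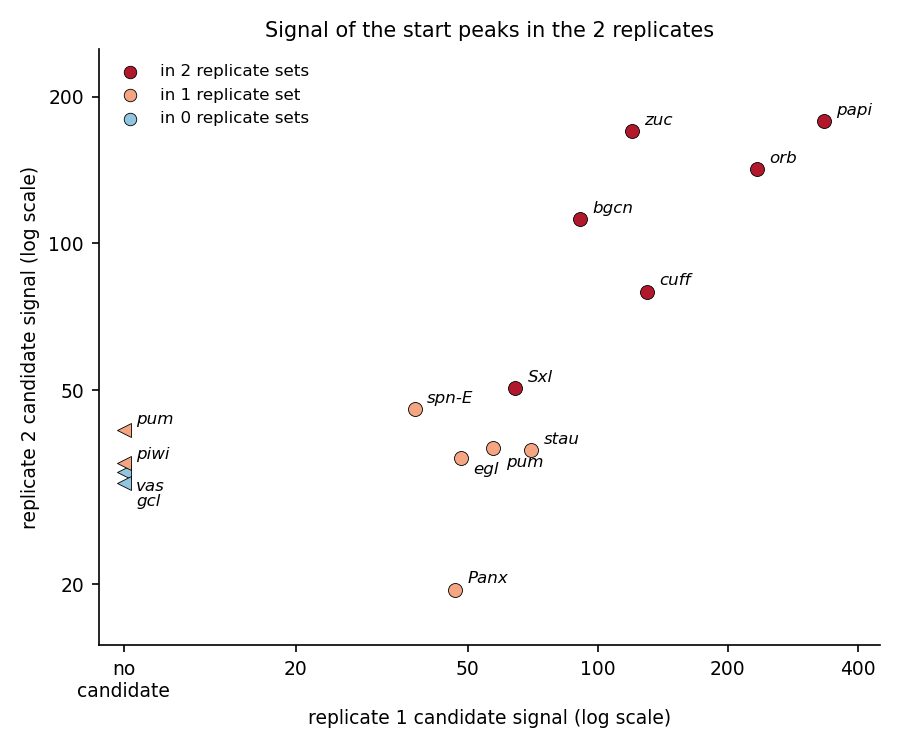
Signal of the candidate at each of the 15 start sites in replicate 1 (horizontal) and replicate 2 (vertical), on log scales, with triangles at the left edge where replicate 1 lists no candidate. Colour gives the number of replicate thresholded sets that hold the site, from 2 (red) to 0 (blue). The sites in both sets lie at the upper right, from Sxl at 64.4 and 50.5 to papi at 334 and 178, and piwi, vas, gcl and the second pum start have no replicate 1 candidate.

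The annotation's names for the unmatched list entries were looked up after the values were seen. nanos, a translational repressor of the germ plasm, had a larger-set start peak of 81.2, 361 bp upstream, and 3 conservative peaks within 5 kb but none at a start. bru1, a repressor of osk translation, had none in the conservative set. With both genes added, the share with a conservative start peak was 27.8%, or 10 of 36.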

How the data were processed

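Ranshi-eGFP ChIP-seq peak lists from 2 biological replicates, grouped per the labels, were used as the authors deposited them on dm6. Control libraries were not analysed here, and no aligner or caller is named in the labels. The deposited score of a peak is 125 times the binary logarithm of the inverse IDR, at most 1000, and was at least 830 in every thresholded set. The deposited signal is the peak caller's value and was ranked within each list. The deposited −log10 IDR of the ranked lists, capped at 5, was turned into an IDR. The 4 kinds of column for separate inputs in the series ranked lists were not used.

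Summits were the peak start plus the deposited offset. Genes came from Ensembl release 115 and sequence from RefSeq. All 428083 peak records on the 7 arms ended within the arms. A summit counted for every gene with a start within 500 bp, or for every gene containing it or within 5 kb. Peaks were matched between lists by overlap of 1 bp or more. Peak assignment was checked on simulated peaks. Every matched gene is named, those with a start peak in the conservative or larger set in full. The others are given with their highest peak or candidate, except AGO3, given by its candidate counts, and vret, given by its nearest conservative summit. The genes, lists and motifs were chosen with earlier results of these data known, and no test was made, since there is 1 group. Alternatives changed the list, replicate, window, overlap and assignment. Python 3.11.15, pandas 2.3.3, numpy 2.4.6 and matplotlib 3.10.9 were used.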

Additional observations from a re-analysis of the deposited data

How the results depend on the processing

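Of 51 alternatives computed, 37 kept the value within 1.5 times (or 1 SD for ranks), and 14 did not. For the conservative share of 29.4% at starts, the upper 50% of peaks by signal gave 14.7% (beside 7.86% of all genes), a 200 bp window 8.82% (beside 9.06%), and only genes with a candidate at a start in the denominator 47.6% (beside 21.6% of all genes with one). Chosen after seeing the data, a 1000 bp window in the larger set gave 50% and a 200 bp window in the replicate 1 set 11.8%, beside 24.1% and 9.8% of all genes. The replicates' own sets gave 26.5 to 32.4%. For the 59 other germline genes the larger set gave 20.3%, the upper 50% of peaks 1.69%, a 1000 bp window 20.3% and the replicates' own sets 10.2 to 15.3%. Within 5 kb, 17.6% had a summit inside the gene (beside 8.61%) and 23.5% one with the own start closest (beside 13.8%). The share found in both replicates was 100% with candidates in place of thresholded sets, beside 97.6% of all start peaks. The median rank percent was 41.8 to 62 in the replicates' own sets. CACTG was at 10% within 25 bases. The causes were not tested. No paired analysis was possible because there is 1 group. With unknown read depth, an absent peak is one not called at this depth.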

Other observations

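At sites with a candidate in both replicates, the series signal was close to the sum of the replicates' signals. Over 4514 such peaks of the larger set the median ratio of series signal to that sum was 0.999, with 5th and 95th percentiles of 0.818 and 1.1. The same ratio was 1.01 at papi, bgcn, Sxl and zuc, 1.02 at orb, 0.924 at egl and 1.09 at stau. In 714 peaks of the larger set (13.3%) a replicate 2 candidate was listed and no replicate 1 candidate, and there the median ratio of series to replicate 2 signal was 1.92. At piwi that ratio was 4.64, at gcl 2.2, at vas 2 and at the second pum start 1.64. What lies behind the ratio at piwi was not tested.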
